A study of Rattus norvegicus with 90 samples.

Results

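Vehicle cultures of cardiomyocytes were compared between 24 h and 9 h after vehicle was applied. The members were chosen by the sample labels alone (cell type cardiomyocytes, dose Vehicle), which gave 10 of the 90 libraries of the series, 5 at each time. The cells were primary cells from the heart of Sprague-Dawley rats, grown in vitro, and no allele, transgene or toxicant was part of either group. The other groups used below were cardiomyocytes given thioacetamide-S-oxide, a reactive metabolite of the liver toxicant thioacetamide, at 0.5 mM (low dose) or 1.5 mM (high dose) for 9 or 24 h, and vehicle cultures of primary hepatocytes and renal tube epithelial cells of the same strain at 9 and 24 h, with 5 libraries in each group. Low-dose hepatocytes (0.025 mM) and low-dose renal cells (0.125 mM) of both times were used only to make lists of enriched transcripts. These groups also had 5 libraries each. The labels describe the vehicle as maintenance medium and name the medium of hepatocytes and renal cells. The medium of the cardiomyocytes, the age of the rats and the isolation of the cells were not given in the sources used here, nor whether the 5 libraries of a group came from separate animals or cultures, so the p-values below measure the spread between these libraries.

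Cardiomyocytes are the contracting cells of heart muscle. They hold large amounts of sarcomere proteins, which form the contractile apparatus, and of mitochondrial proteins that supply its energy. In vitro they are known to adapt to the dish over time, and preparations of them can also hold fibroblasts and endothelial cells. A vehicle control therefore has a time course of its own, and this comparison asks which transcripts differed between the 2 sampling times with no toxicant present. Time after vehicle and total time in culture differ together between the groups and cannot be told apart. In bulk RNA, fewer cells of a type and less RNA per cell cannot be told apart either.

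For each library, the authors deposited the estimated count and the TPM (a level scaled for transcript length and library total) of 40071 rat transcripts with Ensembl identifiers and of 25095 genomic intervals. No table at hand paired these identifiers with gene symbols, and 0 transcripts were matched. Genes are therefore not named here. The labelled cell type was not checked against defining markers such as sarcomere genes, and the share of fibroblasts or endothelial cells was not measured. Transcripts are described instead by their level, length and behavior in other cell types, and 4 of them are shown by identifier.

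The libraries held between 19467515 and 27585600 estimated counts at 9 h (median 20965781) and between 21218284 and 34945783 at 24 h (median 24280678). The mean totals did not differ beyond the spread of the libraries (two-sided exact permutation test, p = 0.143, adjusted p = 0.143 over 6 library measures). At these depths counting error is small for all but the lowest transcripts. Transcripts with any count numbered between 21189 and 22090 at 9 h and between 21385 and 22420 at 24 h. Transcripts, as against intervals, took 90.1% to 94.4% of the counts at 9 h and 92.5% to 94.6% at 24 h. This difference had an exact p of 0.0397 and an adjusted p of 0.0595. The share on intervals is its complement and is also among the 6 measures, so the same difference entered the adjustment again.

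The 10 libraries separated by time. On the first principal component of log2(CPM + 0.5), where CPM is the count scaled to the library total after TMM normalization, the 9 h libraries lay between -29.3 and -20.0 and the 24 h libraries between 17.2 and 41.1. The mean absolute log2 difference between a pair of libraries had a median of 0.22 within 9 h, 0.22 within 24 h and 0.33 between the times. The 24 h library MS-168 stood apart from its group. Its mean distance to the other 24 h libraries was 0.339, against 0.232 to 0.242 for each of the other 4, and it lay at -44.7 on the second component, below all other libraries. The cause was not tested.

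**Figure D1:**
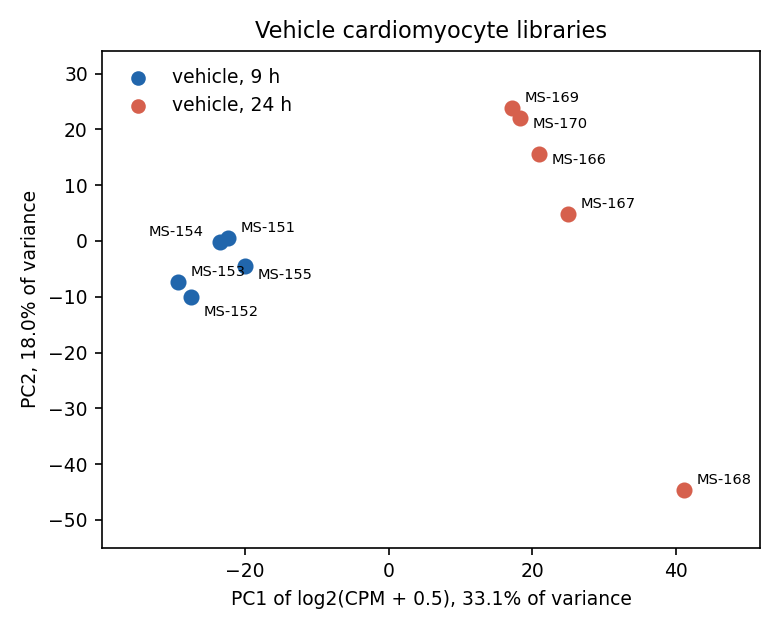
Principal components of the 10 vehicle cardiomyocyte libraries over the transcripts tested, with PC1 on the x axis and PC2 on the y axis and the library number beside each point. The 5 libraries at 9 h and the 5 at 24 h do not overlap on PC1, and MS-168 lies at -44.7 on PC2.

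Between 9 and 24 h, 1303 of 16921 transcripts tested were DEGs (7.70%), of which 850 were higher (5.02%) and 453 lower (2.68%) at 24 h. A DEG, here a differentially expressed transcript, passed 2 limits, a Benjamini-Hochberg adjusted p no higher than 0.05 in the quasi-likelihood test of edgeR and a natural-log fold change no smaller than 0.41 in either direction, which is a fold change of 1.51. Most changes were moderate. The median log2 fold change was 0.93 among the higher DEGs and -0.90 among the lower ones. A change of at least 2-fold was seen in 534 DEGs, 353 of them higher, and of at least 4-fold in 35 higher and 20 lower DEGs. Without the threshold on fold change, 4510 transcripts had an adjusted p of at most 0.05.

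No transcript was switched on or off by the limits used here. None had at least 50 counts in all 5 libraries at one time and under 10 in all 5 at the other, in either direction. All 5 libraries at 24 h lay on one side of all 5 at 9 h for 788 of the 850 higher DEGs and 374 of the 453 lower DEGs, and for 3784 of all transcripts tested (22.4%). Without MS-168 there were 1340 DEGs, of which 60.7% were higher, against 65.2% with all 10 libraries.

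DEGs were more frequent among transcripts of low level. In 5 equal bins of mean level, 12.9% and 11.2% of transcripts were DEGs in the lowest bins, 5.94% in the middle bin, and 3.72% and 4.73% in the highest. Of the 2 directions, the higher DEGs lay at higher levels, with a median of 2.66 on the log2 CPM scale against 1.76 for the lower DEGs and 3.96 for all transcripts tested. In 5 bins of transcript length the share of DEGs ranged from 6.65% to 8.89%. As a share of the whole TPM, the higher DEGs went from 1.90% at 9 h to 3.65% at 24 h and the lower DEGs from 1.04% to 0.603%. These shares follow from the choice of the DEGs and describe how much of the RNA they make up.

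**Figure D2:**
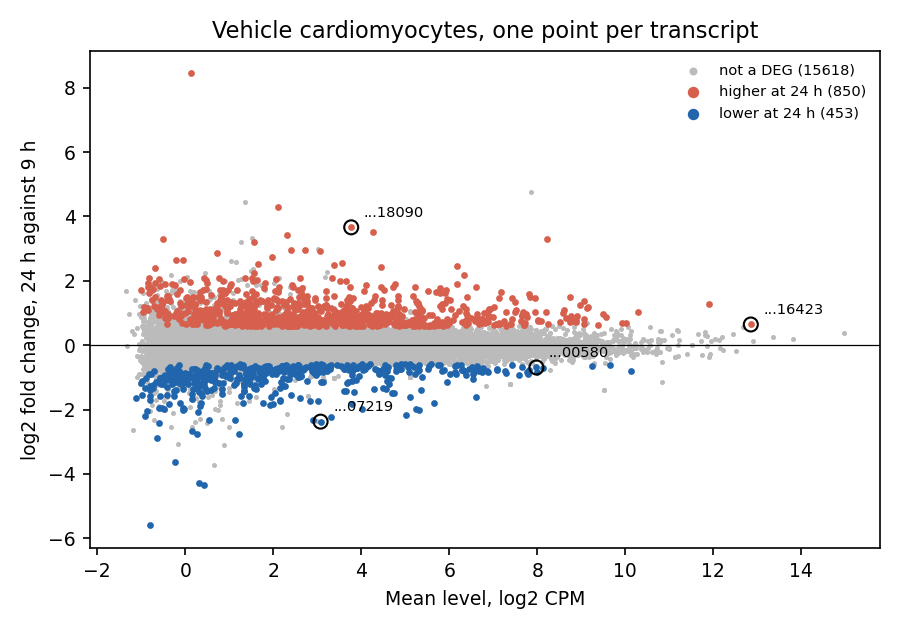
Log2 fold change at 24 h against 9 h (y axis) and mean level as log2 CPM (x axis) of each of 16921 transcripts in vehicle cardiomyocytes, with 850 higher and 453 lower DEGs in color. The rings mark the 4 transcripts described in the text by the end of their identifiers, and DEGs are scarcer at high levels.

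The most abundant transcripts took a larger share of the library at 24 h. The top 10 transcripts of each library held 9.08% to 9.26% of the transcript counts at 9 h and 10.7% to 11.3% at 24 h, with no overlap (two-sided exact permutation test, p = 0.00794, the smallest that 5 against 5 libraries can give, adjusted p = 0.0238 over 6 library measures). For the top 100 the ranges were 26.0% to 26.6% and 27.4% to 28.6%, with the same p-values. Among the 10 transcripts with the highest mean count, 8 had a positive log2 fold change, 8 had an adjusted p of at most 0.05, and 1 passed the threshold on fold change. The most counted transcript, 5825 bases long, took 2.83% ± 0.05 (SD, n = 5) of the counts at 9 h and 3.57% ± 0.21 at 24 h. Its log2 fold change was 0.39 with an adjusted p of 7.34e-06 in edgeR's test, under the threshold on fold change.

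Next, 4 transcripts are described that had the largest changes in fold or TPM among the DEGs with a mean of at least 3 on the log2 CPM scale and no overlap in CPM between the times, and DEGs outside those limits were not ranked. Of these, the largest fold increase was that of ENSRNOT00000018090, a transcript of 3600 bases. Its level at 9 h was 2.20, 1.75, 1.91, 2.17 and 1.77 CPM in the 5 libraries, and at 24 h it was 24.9, 23.6, 28.6, 23.6 and 24.2 CPM. The groups did not overlap, and the lowest 24 h library, at 23.6 CPM, was far above the highest 9 h library, at 2.20 CPM. The log2 fold change was 3.66 (SE 0.09, edgeR adjusted p = 2.07e-09). The counts behind it were 31 to 57 at 9 h and 524 to 791 at 24 h, so the 9 h level is the less precise of the pair. Its estimated counts were not all whole (within 0.001), so some reads were shared with other targets.

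Within the same limits, the largest rise in TPM was that of ENSRNOT00000016423, a transcript of 4464 bases and among the 10 most counted. It had 6036, 5731, 5523, 5931 and 5713 CPM at 9 h and 8287, 8908, 10296, 8698 and 9000 CPM at 24 h. All 24 h libraries lay above all 9 h libraries, with MS-168 the highest. Its mean TPM went from 1791 ± 84.0 (SD, n = 5) to 2840 ± 202. The log2 fold change was 0.64 (SE 0.05, edgeR adjusted p = 5.18e-06), and without MS-168 it was 0.58, just under the threshold on fold change, with an adjusted p of 3.48e-07.

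Within the same limits, the largest fold decrease was that of ENSRNOT00000007219, a transcript of 2817 bases. Its level at 9 h was 15.3, 13.9, 13.3, 13.7 and 14.5 CPM, and at 24 h it was 3.04, 3.15, 2.24, 2.53 and 2.67 CPM. The 5 libraries of each time lay close together and far from those of the other time. The log2 fold change was -2.37 (SE 0.10, edgeR adjusted p = 3.81e-08), and its estimated counts came out whole (within 0.001) in each of the 10 libraries.

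Within the same limits, the largest fall in TPM was that of ENSRNOT00000000580, a transcript of 324 bases. It had 297.5, 312.0, 336.5, 292.4 and 322.7 CPM at 9 h and 171.7, 181.5, 287.9, 168.8 and 157.4 CPM at 24 h. The value of 287.9 CPM was that of MS-168, which lay just below the lowest 9 h library and far above the other 4 at 24 h. On the TPM scale the mean went from 2501 ± 192 (SD, n = 5) to 1588 ± 425, and MS-168, at 2334, lay within the 9 h range of 2315 to 2721, so that the groups overlapped there. The log2 fold change was -0.69 (SE 0.15, edgeR adjusted p = 0.00508) with MS-168 and -0.89 without it. Its estimated counts were not all whole, so reads were shared with other targets, and its short length makes its TPM depend on the effective length that Kallisto assigned.

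**Figure D3:**
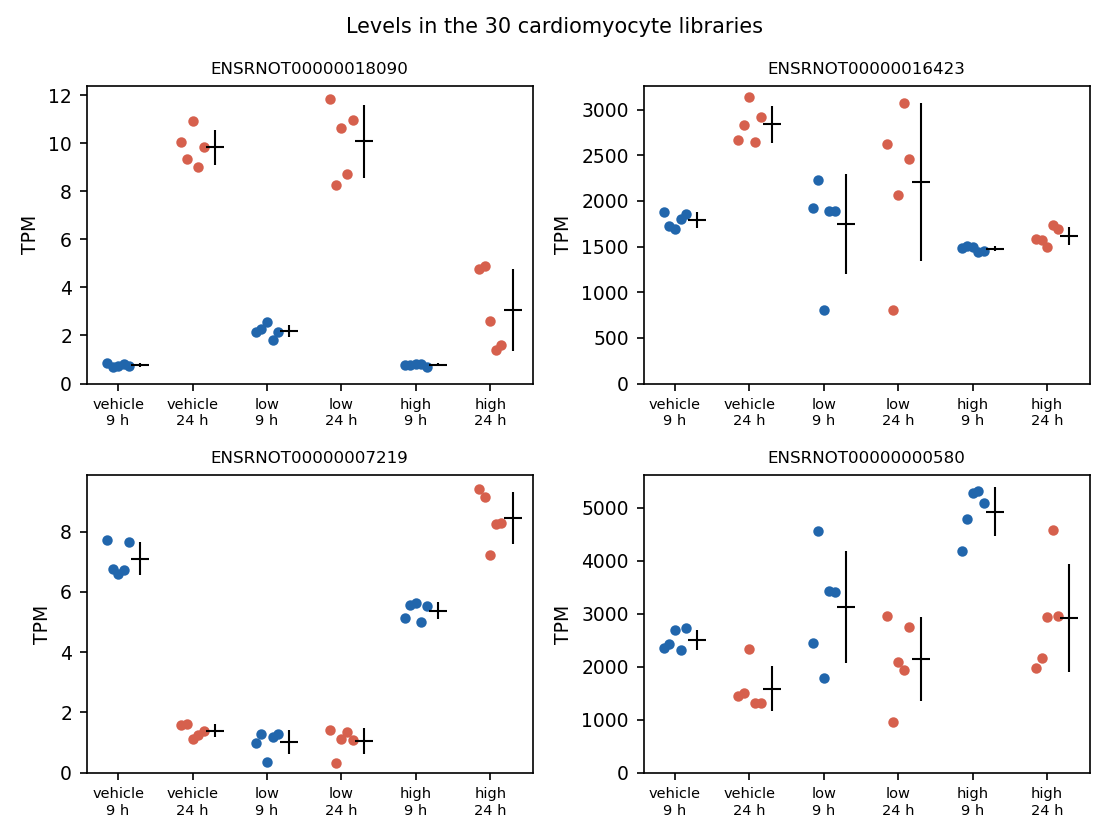
TPM (y axis, linear, from 0) of 4 transcripts in each of the 30 cardiomyocyte libraries by dose and time (x axis), with the mean and SD of 5 libraries beside the points in black. ENSRNOT00000018090 is low in all vehicle libraries at 9 h and near 10 TPM at 24 h, and ENSRNOT00000007219 is as low in the low-dose libraries at both times as in vehicle at 24 h.

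Since no marker genes could be read, transcripts enriched in each cell type were taken from the low-dose libraries, which the vehicle comparison does not use. In these libraries the toxicant was at 0.5 mM in cardiomyocytes, 0.025 mM in hepatocytes and 0.125 mM in renal cells. A transcript was listed for a cell type when its mean there was at least 10 CPM and at least 10 times the mean in each of the other 2 cell types. Among these libraries, renal library MS-145, at 24 h, stood apart from its group. Its top 10 transcripts held 30.7% of the transcript counts, against 8.06% to 11.1% in the others. It is absent only from the lists made from the 9 h libraries alone. Of the 322 cardiomyocyte-enriched transcripts, 321 were tested in vehicle cardiomyocytes and 96 were DEGs, 79 higher and 17 lower at 24 h. That is 29.9%, against 7.70% of all transcripts tested and 4.79% of the 10045 tested transcripts with a mean of at least 10 CPM. The median log2 fold change of the list was 0.27, against 0.01 over all transcripts. Both transcripts with increases named above are on this list, and neither with a decrease is.

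The low-dose libraries behind the list were of both times, 5 at 9 h and 5 at 24 h, so a transcript that rises between the times could enter it through its 24 h level. When the list was made from the 9 h low-dose libraries alone, 331 listed transcripts were tested and 87 were DEGs (26.3%), 67 higher and 20 lower, with a median log2 fold change of 0.21. ENSRNOT00000016423 was on that list and ENSRNOT00000018090 was not.

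In each library, the cardiomyocyte-enriched transcripts together held 9.72% to 10.1% of the transcript counts at 9 h and 11.4% to 11.9% at 24 h. The groups did not overlap, and MS-168, the lowest of the 24 h libraries at 11.4%, lay within this pattern. Among the 10 transcripts with the highest mean count, 5 were on the list. At least 2-fold changes were called in 30 higher (9.35%) and 6 lower members (1.87%), against 2.09% and 1.07% of all transcripts tested, with log2 fold changes from -2.25 to 3.66.

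**Figure D4:**
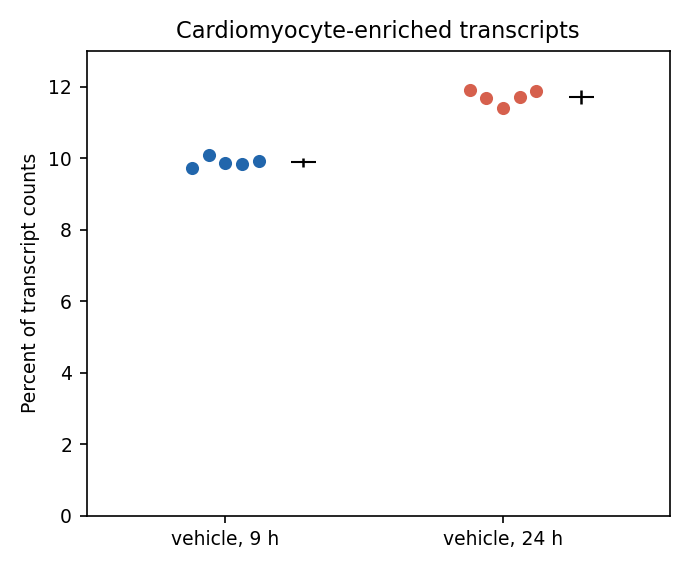
Percent of transcript counts (y axis, from 0) held by the 322 cardiomyocyte-enriched transcripts in each vehicle cardiomyocyte library at 9 and 24 h (x axis), with the mean and SD of 5 libraries in black. The 9 h libraries lie between 9.72% and 10.1% and the 24 h libraries between 11.4% and 11.9%.

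Transcripts enriched in the other cell types were at low levels in these cultures. The 518 hepatocyte-enriched transcripts, of which 32.4% passed the filter on low counts, held 0.116% to 0.121% of the counts at 9 h and 0.119% to 0.139% at 24 h, and 28 were higher and 9 lower. The 255 renal-enriched transcripts, of which 52.5% passed, held 0.115% to 0.120% and 0.106% to 0.119%, and 9 were higher and 23 lower. The overlap of the times in both shares rests on MS-168, at 0.119% for either list. Without it, the hepatocyte-enriched share at 24 h was 0.131% to 0.139%, above all 9 h libraries, and the renal-enriched share was 0.106% to 0.111%, below all of them. The shares of DEGs among those tested were 22.0% and 23.9%. The lists had median levels of 1.33 and 1.19 on the log2 CPM scale, within the lowest bin of level, in which 12.9% of all transcripts were DEGs, against 7.70% over all levels. With no filter on low counts, the higher DEGs were 6.80% of the hepatocyte list, against 16.7%, and 3.67% of the renal list, against 6.72%. The lower DEGs were then 2.27% of the hepatocyte list, against 5.36%, and 13.5% of the renal list, against 17.2%. Over all transcripts there were 827 higher and 471 lower DEGs of 27692 with no filter, against 850 and 453 of 16921. The shares with the filter cover only the members that passed it. The hepatocyte list, like the cardiomyocyte list, had more higher than lower DEGs. The median log2 fold change was 0.14 in the hepatocyte list and -0.07 in the renal list, which had more lower than higher DEGs.

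The hepatocyte list also depended on the time of the low-dose libraries behind it. Made from the 9 h libraries alone, 24.7% of the hepatocyte-enriched transcripts tested were DEGs, 35 higher (19.7%) and 9 lower, with a median log2 fold change of 0.18. The cardiomyocyte list made in that way had 20.2% higher and a median of 0.21. A hepatocyte list from 9 h requires low levels in low-dose cardiomyocytes at 9 h, which favors later rises there. A cardiomyocyte list from 9 h requires high levels at 9 h, so the 2 shares cannot be compared directly. The hepatocyte list from the 9 h libraries held 0.140% to 0.142% of the counts at 9 h and 0.201% to 0.217% at 24 h, with no overlap. The cardiomyocyte list made in that way held 10.1% to 10.4% and 11.9% to 12.2%. A single transcript, singled out after its values were seen, took 0.00419% to 0.00638% at 9 h and 0.0520% to 0.0549% at 24 h, and without it the hepatocyte list held 0.134% to 0.138% and 0.147% to 0.165%. Without its own member of largest change, the cardiomyocyte list held 7.30% to 7.51% and 8.32% to 8.61%. The renal list from the 9 h libraries had 12 higher and 22 lower DEGs, with a median of -0.04. The levels of other heart cells in the dish were not measured, and their part in these counts was not tested.

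The same interval of time was then read in cardiomyocytes that received thioacetamide-S-oxide, in libraries that did not enter the vehicle comparison. Whether the animals or preparations were shared was not given in the sources used here. Between 9 and 24 h, 1.03% of 17214 transcripts were DEGs at the low dose, 0.941% higher and 0.0871% lower. At the high dose 859 of 18187 were DEGs (4.72%), 591 higher (3.25%) and 268 lower (1.47%). The low-dose share is unstable, and 2 of its libraries stand apart. The top 10 transcripts held 30.8% of the transcript counts in MS-158, at 9 h, and 34.2% in MS-172, at 24 h, against 8.92% to 12.8% in the other 8. The DEGs numbered between 58 and 100, or 0.334% to 0.572%, without any 1 of MS-156, MS-157, MS-159, MS-160, MS-171 and MS-175, 287 without MS-158, 261 without MS-172, and 734 (4.12% of 17830) without both.

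The vehicle DEGs mostly had the same sign at the low dose, although most did not pass the test there. Of the 1271 that were tested there, 1089 had the same sign (85.7%), against 64.95% of all transcripts tested in both. The median log2 fold change at the low dose was 0.54 for the higher DEGs of vehicle and -0.38 for the lower ones. The DEGs of the same direction in both comparisons made up 8.98% of the vehicle list and 66.1% of the low-dose list, and 1 transcript was a DEG of the opposite direction. Without MS-172 these shares were 12.2% and 60.9%, without MS-158 they were 13.5% and 61.3%, and without both they were 28.8% and 51.1%. The part of the vehicle DEGs with the same sign was 84.8%, 84.2% and 86.2% in these fits, against 60.8%, 64.7% and 66.0% of all transcripts.

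At the high dose, 72.6% of the higher DEGs tested there were also positive, against 47.7% of all transcripts tested in both comparisons, and their median log2 fold change was 0.29. Of the lower DEGs, 51.4% were also negative, against 52.3% of all transcripts, and their median was -0.02, close to that of all transcripts (-0.01). Over both sets, 65.2% had the same sign, against 53.4% of all transcripts, and 225 were DEGs of the same direction, 17.3% of the vehicle list and 26.2% of the high-dose list, while 49 were DEGs of the opposite direction. The cardiomyocyte-enriched list had 58 higher and 15 lower DEGs of 319 tested at the high dose, with a median of 0.21, against 3.25% higher, 1.47% lower and a median of -0.01 over all transcripts.

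The difference between the time effects was tested by the interaction of time and dose. It was called for 0.797% of 17932 transcripts at the low dose and for 1414 of 18288 at the high dose (7.73%). The low-dose calls numbered 95 and 93 without vehicle library MS-166 or MS-167, 270 and 229 without low-dose library MS-158 or MS-172, and 476 (2.63%) without both of these. In the fits with all libraries, 81 of the 1303 vehicle DEGs were called for the interaction with the low dose and 586 for that with the high dose, and 243 for the low dose without MS-158 and MS-172. The vehicle DEGs were chosen on libraries that also enter the interaction, which favors effects that are larger in vehicle, so these counts carry no weight of their own.

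The levels of the vehicle DEGs in each library show where the doses lay. Over the 850 higher DEGs, the mean log2 level relative to the mean of vehicle at 9 h was 0.89 ± 0.02 (SD, n = 5) in vehicle at 24 h, 0.24 ± 0.04 at the low dose at 9 h and 0.75 ± 0.13 at the low dose at 24 h. At the high dose it was -0.30 ± 0.11 at 9 h and -0.03 ± 0.13 at 24 h, so the high-dose libraries at 24 h lay around the level of vehicle at 9 h. Over the 453 lower DEGs, the same mean was -0.83 ± 0.02 in vehicle at 24 h, -0.42 ± 0.23 and -0.76 ± 0.26 at the low dose at 9 and 24 h, and -0.03 ± 0.01 and -0.06 ± 0.09 at the high dose. Low-dose libraries MS-158 (-0.83 at 9 h) and MS-172 (-1.16 at 24 h) were the lowest of their groups on this measure. The vehicle libraries both chose these transcripts and set the zero, so the vehicle values follow from that choice, which also moves the other groups toward the 24 h level, and no test was made.

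**Figure D5:**
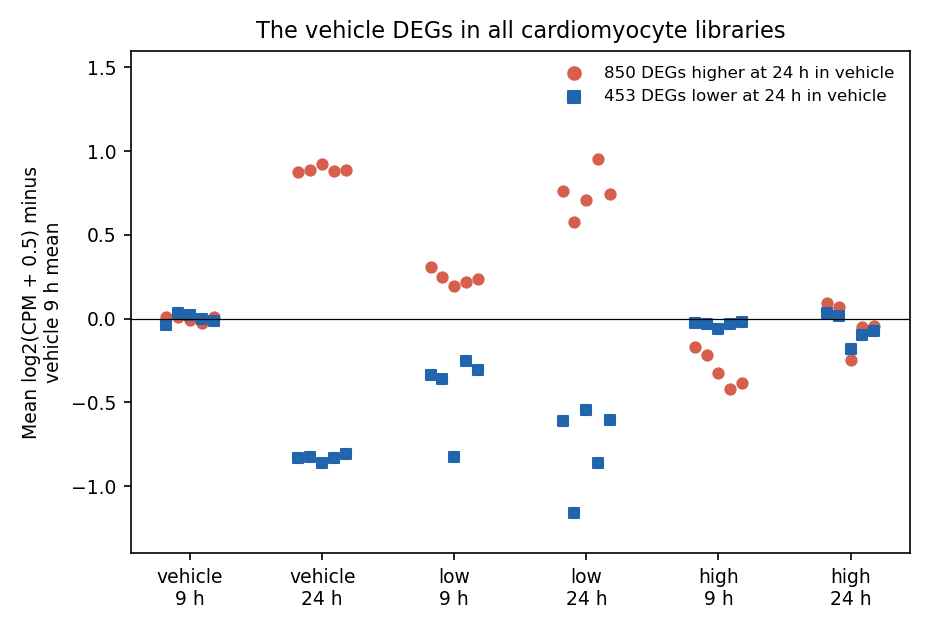
Mean log2(CPM + 0.5) of the 850 higher (circles) and 453 lower (squares) vehicle DEGs in each of 30 cardiomyocyte libraries, relative to the mean of vehicle at 9 h (y axis), by dose and time (x axis). For the higher set, 4 of the 5 low-dose libraries at 24 h (0.58 to 0.76) lie below all vehicle libraries at 24 h (0.88 to 0.93). For the lower set, 3 of them (-0.61 to -0.55) lie nearer 0 than all vehicle libraries at 24 h (-0.86 to -0.81) and MS-172 lies at -1.16, while the high-dose libraries at 24 h lie between -0.24 and 0.10 in both sets.

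The transcripts with the largest fold changes within the naming limits were then read under the toxicant. They were chosen for their change in vehicle libraries that also enter the interaction, so the interaction values below are descriptions of chosen transcripts. ENSRNOT00000018090 had 2.19 ± 0.26 TPM (SD, n = 5) at 9 h and 10.1 ± 1.53 at 24 h at the low dose, and 0.775 ± 0.060 and 3.06 ± 1.69 at the high dose, against 0.762 ± 0.078 and 9.83 ± 0.73 in vehicle. Its rise was called at both doses, with log2 fold changes of 2.31 (edgeR adjusted p = 0.0137) and 2.16 (adjusted p = 0.00197). The difference of this rise from that in vehicle, by the interaction test, was -1.34 on the log2 scale at the low dose, which did not pass (adjusted p = 0.0852), and passed without MS-172 (-1.56, adjusted p = 0.0153) and without both MS-158 and MS-172 (-1.20, adjusted p = 4.94e-05). At the high dose it was -1.49 (adjusted p = 0.0109).

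ENSRNOT00000007219 was already low at 9 h at the low dose, with 1.02 ± 0.39 TPM (SD, n = 5) against 7.09 ± 0.55 in vehicle, and stayed at 1.06 ± 0.44 at 24 h. At the high dose it had 5.37 ± 0.28 TPM at 9 h and 8.46 ± 0.87 at 24 h, a rise with a log2 fold change of 0.83 (edgeR adjusted p = 0.000143), where vehicle fell. Its interaction with time was 2.58 at the low dose (adjusted p = 1.17e-05) and 3.21 at the high dose (adjusted p = 1.72e-11). For ENSRNOT00000016423 and ENSRNOT00000000580, neither interaction with dose was called. That of ENSRNOT00000016423 with the high dose was -0.34 with an adjusted p of 0.00173, under the threshold on fold change.

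In the other cell types, vehicle cultures also differed between 9 and 24 h. There were 1607 DEGs of 17658 transcripts in renal cells (9.10%), 803 higher (4.55%) and 804 lower (4.55%), and 3234 of 16264 in hepatocytes (19.9%), 1343 higher (8.26%) and 1891 lower (11.6%). The hepatocyte count was 5969 without the 24 h library MS-183, in which 8.33% of the counts (249303) fell on transcripts, against 84.1% to 93.5% in the other 4 of its group. The hepatocyte vehicle libraries at 24 h are numbered MS-181 to MS-185, apart from all other hepatocyte libraries (MS-91 to MS-120). What the numbers stand for was not given. In hepatocytes, time therefore cannot be told apart from any other difference between these sets of libraries. Of the cardiomyocyte vehicle DEGs, 1028 were tested in renal cells and 60.2% had the same sign, against 57.4% of all transcripts, and 765 were tested in hepatocytes and 38.7% had the same sign, against 46.6%. DEGs of the same direction in renal cells made up 11.0% of the vehicle list and 8.90% of the renal list, and 70 were DEGs of the opposite direction. In hepatocytes 93 were DEGs of the same direction, 7.14% of the vehicle list and 2.88% of the hepatocyte list, and 203 of the opposite one. Without MS-183 the same-direction share was 12.8% of the vehicle list, and 307 were of the opposite direction. Of the 698 vehicle DEGs of cardiomyocytes tested in both other cell types, 10 were called in the same direction in both (1.43%), 7 of them higher, against 0.360% of the 14164 transcripts tested in all 3 cell types, DEGs or not, that were called in both in the direction of their cardiomyocyte fold change.

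The interaction of time with cell type was called for 1977 of 18975 transcripts between cardiomyocytes and renal cells (10.4%), and for 4609 of 18941 between cardiomyocytes and hepatocytes (24.3%, 6176 without MS-183). The cardiomyocyte-enriched list, at 24 higher and 38 lower DEGs of 252 tested, had a median log2 fold change of -0.14 in renal vehicle cultures, where it was 0.27 in cardiomyocytes. Over all transcripts tested in renal cells, 4.55% were higher, 4.55% lower and the median was -0.00. ENSRNOT00000018090 had 0.631 ± 0.121 TPM at 9 h and 0.483 ± 0.064 at 24 h in renal cells, a change that did not pass (log2 fold change -0.30, edgeR adjusted p = 0.254), and was not tested in hepatocytes. ENSRNOT00000007219 fell in all 3 cell types, with log2 fold changes of -0.92 in renal cells (edgeR adjusted p = 3.01e-06) and -1.20 in hepatocytes (adjusted p = 0.000437), and the interaction with cell type was -1.44 against renal cells (adjusted p = 1.94e-08) and -1.15 against hepatocytes (adjusted p = 3.28e-05). As the largest fall in the cardiomyocyte libraries, it was chosen on values that enter these differences, which are therefore a description. ENSRNOT00000016423, at 1791 TPM in vehicle cardiomyocytes at 9 h, was at 103.4 ± 4.21 TPM in renal cells at 9 h and listed at 0 in all 5 hepatocyte libraries at 9 h. At 24 h it had 86.2 TPM in hepatocyte library MS-183 and 1.28 to 3.27 TPM in the other 4. It passed the filter on low counts there only through the 24 h libraries, and no fold or test is given against 0. ENSRNOT00000000580, which fell in cardiomyocytes, rose in hepatocytes from 39.1 ± 1.86 TPM (SD, n = 5) to 103.9 ± 21.4, with a log2 fold change of 2.08 (edgeR adjusted p = 0.00559), or 1.61 without MS-183. In renal cells its log2 fold change was 0.06 and did not pass (adjusted p = 0.788).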

How the data were processed

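Per the labels, poly-A-enriched libraries of total RNA were sequenced in paired 150-base reads. Kallisto 0.42.4 and Rnor_6.0 are named in the submitters' processing notes. The authors deposited estimated counts, in which a read compatible with several targets is divided among them, and TPM. Groups came from the labels.

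Only targets with Ensembl identifiers were tested. After rounding to integers, the estimated counts of the groups compared were fitted with edgeR 4.0.16 under R 4.3.3 (TMM, filterByExpr, estimateDisp, glmQLFit and glmQLFTest), and p-values were adjusted by Benjamini-Hochberg over every transcript in the fit. The standard error was the log2 fold change divided by the square root of the F statistic. Interaction fits held both times of both groups. The study used Sleuth with the same thresholds. Library measures were compared with exact permutation tests.

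The named transcripts were, among DEGs whose mean level was 3 or more on the log2 CPM scale and whose times did not overlap, the one with the largest log2 fold change and the one with the largest change in mean TPM in each direction, out of 377 higher and 134 lower candidates. The comparison, the lists and this rule were chosen with earlier results of these data known. Lists of clock, cell cycle, cholesterol, stress and cell type marker genes were prepared but could not be matched to transcripts.

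The alternatives were DESeq2 1.42.0, upper-quartile normalization, no filter beyond 1 count, at least 5 counts in at least 47% of libraries, limma 3.58.1 on log2(CPM + 0.5), all 6 cardiomyocyte groups in one fit, other thresholds, and each library left out in turn. After the data were seen, fits on whole counts alone, with the intervals included and without MS-158 and MS-172, lists and overlaps without MS-172, MS-158 or both, and lists from the 9 h or 24 h libraries alone, were added. Tested on simulated data for the vehicle comparison with 16921 transcripts, edgeR recovered 21 of 67 transcripts changed 1.5-fold, 51 of 67 changed 2-fold and 60 of 66 changed 4-fold, with 0 in the wrong direction and 6 false calls. The 1.5-fold change lay just under the threshold of 1.51, which limited its recovery in advance. No 2 of the 90 libraries held identical counts.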

Additional observations from a re-analysis of the deposited data

Results flagged for a closer look

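A sample far from the others was looked for in 26 sets of 5 libraries, the library measures, named transcripts, list shares and distances of the vehicle cardiomyocytes at each time. It was found in 5 sets, where chance gives about 1 in 20, or 1.3 of 26. All 5 were at 24 h, and 4 concerned MS-168. Its mean distance to the other 24 h libraries was 0.339, against 0.232 to 0.242 for the rest, and its top 100 transcripts held 28.6% of the counts against 27.4% to 27.5%. It had 287.9 CPM of ENSRNOT00000000580 against 157.4 to 181.5, and 28.6 CPM of ENSRNOT00000018090 against 23.6 to 24.9. In MS-169 transcripts took 92.5% of the counts, against 94.4% to 94.6% in the other 4 libraries. The causes were not tested.

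The change from 9 to 24 h differed between vehicle cardiomyocytes and another group by an interaction term for 0.797% of the transcripts tested with the low dose, 7.73% with the high dose, 10.4% with renal cells and 24.3% with hepatocytes. Among the named transcripts, which were chosen for their change in vehicle cardiomyocytes, the differences in log2 fold change that passed edgeR's test were 2.58 (low dose against vehicle) and 3.21 (high dose against vehicle) for ENSRNOT00000007219, and -1.49 (high dose against vehicle) for ENSRNOT00000018090. With cell type, as cardiomyocytes against renal cells and then against hepatocytes, they were -1.44 and -1.15 for ENSRNOT00000007219, and -0.75 (adjusted p = 0.0175) and -2.48 (adjusted p = 2.74e-05) for ENSRNOT00000000580. For ENSRNOT00000018090 the difference against renal cells was 3.96 (adjusted p = 4.50e-12). Against hepatocytes no value is given for ENSRNOT00000018090, which did not pass the filter on low counts in hepatocytes, or for ENSRNOT00000016423, which is listed at 0 in all 5 hepatocyte libraries at 9 h.

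The genomic intervals, which no comparison of transcripts used, took a median of 8.01% of the estimated counts at 9 h and 5.58% at 24 h.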

How the results depend on the processing

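No paired analysis was possible because the library numbers are not shared between the groups. The count of 1303 vehicle DEGs was 1356 with DESeq2, 1295 with upper-quartile normalization, 1298 with no filter, 1372 with the filter of 5 counts, 1186 with limma, 869 with all cardiomyocyte groups in one fit and 1309 with intervals included, and 1233 to 1340 with each library left out. It was 658 over transcripts with whole counts, where fewer were tested, 4510 without the fold threshold and 534 at 2-fold. Of the called transcripts, 60.7% to 67.9% were higher in these fits that kept both thresholds. Over all results and alternatives, whole comparisons and overlaps were judged by their number of transcripts, and the enriched lists by their share of those tested. By this rule 316 values stayed on the same side or within 1.5 times, 28 moved, 1 fell under its threshold (ENSRNOT00000016423 without MS-168, 0.58) and none turned direction.

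For the other counts, shares of the transcripts tested are given. DEGs of the same direction at the low dose made up 19.4% of the vehicle DEGs with DESeq2, 13.5% without low-dose library MS-158 and 28.8% without MS-158 and MS-172, against 8.98%. Without both, the low-dose time contrast called 4.12% and the interaction with the low dose 2.63%. The low-dose time contrast called 2.64% with DESeq2, 0.396% with no filter and 0.334% to 1.64% with each library left out, the hepatocyte contrast 4.35% with no filter and 13.3% to 35.5% with each library left out, and the interaction with the low dose 1.85%, 0.267% and 0.512% to 1.49%. The cause of these shifts was not tested. With no filter, where more of each list was tested, 6.80% of the hepatocyte-enriched transcripts were higher DEGs and 2.27% lower ones. Of the renal-enriched, 3.67% were higher and 13.5% lower. Over all 27692 transcripts tested in that fit, 827 were higher and 471 lower. Of the other ranges with each library left out, those of the high dose (3.64% to 5.82%), renal cells (8.25% to 9.45%) and the interactions with the high dose (6.99% to 8.52%), renal cells (9.68% to 11.1%) and hepatocytes (20.5% to 31.99%) stayed within 1.5 times. With no filter, where more transcripts were tested, these shares were, in the same order, 2.88%, 5.85%, 4.39%, 6.21% and 11.3%. The main shares were 4.72%, 9.10%, 7.73%, 10.4% and 24.3%. The shares thus moved by more than 1.5 times, while the numbers called stayed within it.

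Depth was between 17583672 and 32984684 counts on transcripts. Recovery by level of transcript was not tested.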
